A study of Mus musculus with 6 samples.

Results

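The genes described here are Neurog3, Sox4, Myc, Gast, Cck, Fev, Cd81, Hes1 and Aass, 9 genes that mark endocrine progenitors of the developing pancreas or beta cells that lose their mature state. They were taken by symbol from a table of 55401 gene identifiers. The table holds RNA-seq read counts of pancreatic islets from male mice of the C57BL/6 strain, about 20 weeks old. Both groups carried floxed alleles of Pdgfra, which encodes a receptor for platelet-derived growth factors. The 3 libraries labelled KO came from Pdgfra fl/fl mice with Pdx1-Cre, and the 3 control libraries from Pdgfra fl/fl mice without Pdx1-Cre. The Pdx1 promoter is active in progenitors of the whole pancreas, so recombination need not be limited to beta cells. No group with Cre and unfloxed Pdgfra was analysed here, so effects of Cre and of the deletion cannot be told apart. The labels name beta cells as the cell type but no sorting step, and the titles number mice without saying that libraries are separate animals, so p-values reflect only the spread among these libraries, which may be technical.

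During development, a pulse of the transcription factor Neurog3 commits pancreatic progenitors to the endocrine fate. Notch signalling opposes it through the repressor Hes1, while the high mobility group factor Sox4 works beside Neurog3 and the ETS factor Fev marks the precursors that follow. Mature beta cells hold Neurog3 low. In mouse models of diabetes, beta cells that lose their identity have been described to regain Neurog3 and Myc, the peptide hormones gastrin and cholecystokinin, and the surface protein Cd81.

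Pdgfra itself gave 93, 25 and 125 counts in KO 1, 2 and 3, against 42, 88 and 116 counts in controls 1, 2 and 3 (log2 fold change -0.26, SE 0.34, edgeR adjusted p = 0.869). Counts are summed over all exons, so transcripts that lack only the floxed exons still count and this gene checks no label. The libraries held 18247741 to 25039394 counts in KO and 15026094 to 25299689 in controls. Markers of beta cells, 10 of 10 detected, took 10.7% to 13.0% of counts in KO and 7.99% to 15.1% in controls. The tissue was not pure islet, since 21 acinar genes, mostly of digestive enzymes, took 18.1% to 32.9% of counts in KO and 23.8% to 42.5% in controls. Some libraries stood apart. Control 1 had the highest acinar share, 42.5%. KO 2 had the lowest sum of 12 fibroblast and stellate cell markers, 49.8 CPM (counts scaled to library size), against 186 and 242 in the other KO libraries and 157 to 305 in controls. In KO 3 a ribosomal RNA locus took 18.5% of counts, against 5.36% and 12.6% in the other KO libraries and 3.32% to 4.51% in controls, so every KO library was above every control. A fit with the level of this locus as a covariate, used below, separates it poorly from genotype.

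None of the 9 genes differed between KO and control islets at an adjusted p under 0.05. Of all 14212 genes tested, 10 did, or 0.0704%. Gast and Cck had too few counts to be tested, and 0 of the other 7 had an unadjusted p under 0.05 in the edgeR quasi-likelihood test, while 7.37% of all tested genes did. Neither DESeq2 nor limma-voom called any. Of these 7 genes, 6 had negative values and 1 a positive value, with a median log2 fold change of -0.19. Among all genes tested 52.2% were negative, and the median was -0.01. The 95% interval of the fold change stayed below 2-fold for all 7 tested genes, and above 0.5-fold for 5 of them. The exceptions were Neurog3 and Aass, which had the most negative values.

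Neurog3 and Sox4 head the endocrine programme, and the 300 bases around the start site of each are shown because basic helix-loop-helix factors such as Neurog3 and Hes1 read short motifs of the kind marked here. The windows run from 250 bases before to 50 bases after the start site in RefSeq (GRCm38.p6), at chr10:62132840-62133139 on the plus strand for Neurog3 and chr13:28953650-28953949 on the minus strand for Sox4. Capitals mark matches to the E-box CANNTG, which reads the same on both strands, and to the N-box CACNAG on either strand.
Neurog3: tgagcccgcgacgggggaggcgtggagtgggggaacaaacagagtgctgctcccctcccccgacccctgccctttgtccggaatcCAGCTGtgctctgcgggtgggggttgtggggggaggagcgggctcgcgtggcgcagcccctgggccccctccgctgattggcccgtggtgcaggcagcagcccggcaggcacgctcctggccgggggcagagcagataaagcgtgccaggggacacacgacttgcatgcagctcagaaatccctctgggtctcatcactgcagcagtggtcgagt
Sox4: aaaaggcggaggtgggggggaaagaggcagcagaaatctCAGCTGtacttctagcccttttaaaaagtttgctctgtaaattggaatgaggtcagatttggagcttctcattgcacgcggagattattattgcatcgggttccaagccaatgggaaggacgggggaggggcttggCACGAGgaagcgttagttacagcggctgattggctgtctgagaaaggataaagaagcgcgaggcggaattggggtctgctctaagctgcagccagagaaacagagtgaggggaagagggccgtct
Each window held 1 E-box, and in both it read CAGCTG, while Sox4 also had 1 N-box. An E-box occurs in 72.3% of 32851 mouse promoter windows of this length, the form CAGCTG in 16.3% and an N-box in 42.5%. Promoter windows were found for 7 of the 9 genes, of which 6 held an E-box and 2 an N-box, Sox4 and Aass. A match describes the letters and is no evidence of binding.

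Neurog3 (ENSMUSG00000044312.4, a single exon on chromosome 10, 62133090 to 62134763, GRCm38) was lower in every KO library than in any control, by an amount that did not pass the test. It had 48, 34 and 33 counts in KO 1, 2 and 3, against 37, 43 and 67 in controls 1, 2 and 3. Scaled to library size, these were 1.92, 2.12 and 1.26 CPM in KO and 2.97, 2.51 and 2.21 CPM in controls. The groups did not overlap, but the gap between KO 2 and control 3 was under 0.1 CPM. The mean was 1.77 ± 0.45 CPM in KO and 2.56 ± 0.38 CPM in controls (SD, n = 3 each). An exact permutation test gave a two-sided p of 0.1, which is the lowest value that 3 against 3 allows. On the log2 scale the fold change came to -0.53, with a SE of 0.26 and a 95% interval from -1.12 to 0.06 (edgeR adjusted p = 0.721). Neurog3 was the 1 gene of the 7 tested whose groups did not overlap, where 13.9% of all tested genes had none and 5.94% had KO below control. Without KO 3 its value was -0.32.

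With a mean of 43.7 counts per library, counting error alone gives a coefficient of variation of 15.1%. Its single exon shares 273 of 1674 bases with exons of Fam241b on the opposite strand, and no source used here gives the strand setting of the counting, so reads in the shared bases cannot be assigned. Fam241b, looked up after the overlap was seen, stood at 10.1 ± 1.1 CPM in KO and 10.2 ± 0.72 CPM in controls (SD, n = 3 each, log2 fold change -0.01, edgeR adjusted p = 0.994). Control 1 had the highest and KO 3 the lowest Neurog3 level, and the same held for the summed acinar markers. With the mean level of acinar genes as a covariate, the Neurog3 value was -0.44 (SE 0.23, edgeR adjusted p = 0.737). These are bulk preparations, in which fewer cells of a type and less RNA per cell cannot be told apart.

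**Figure D1:**
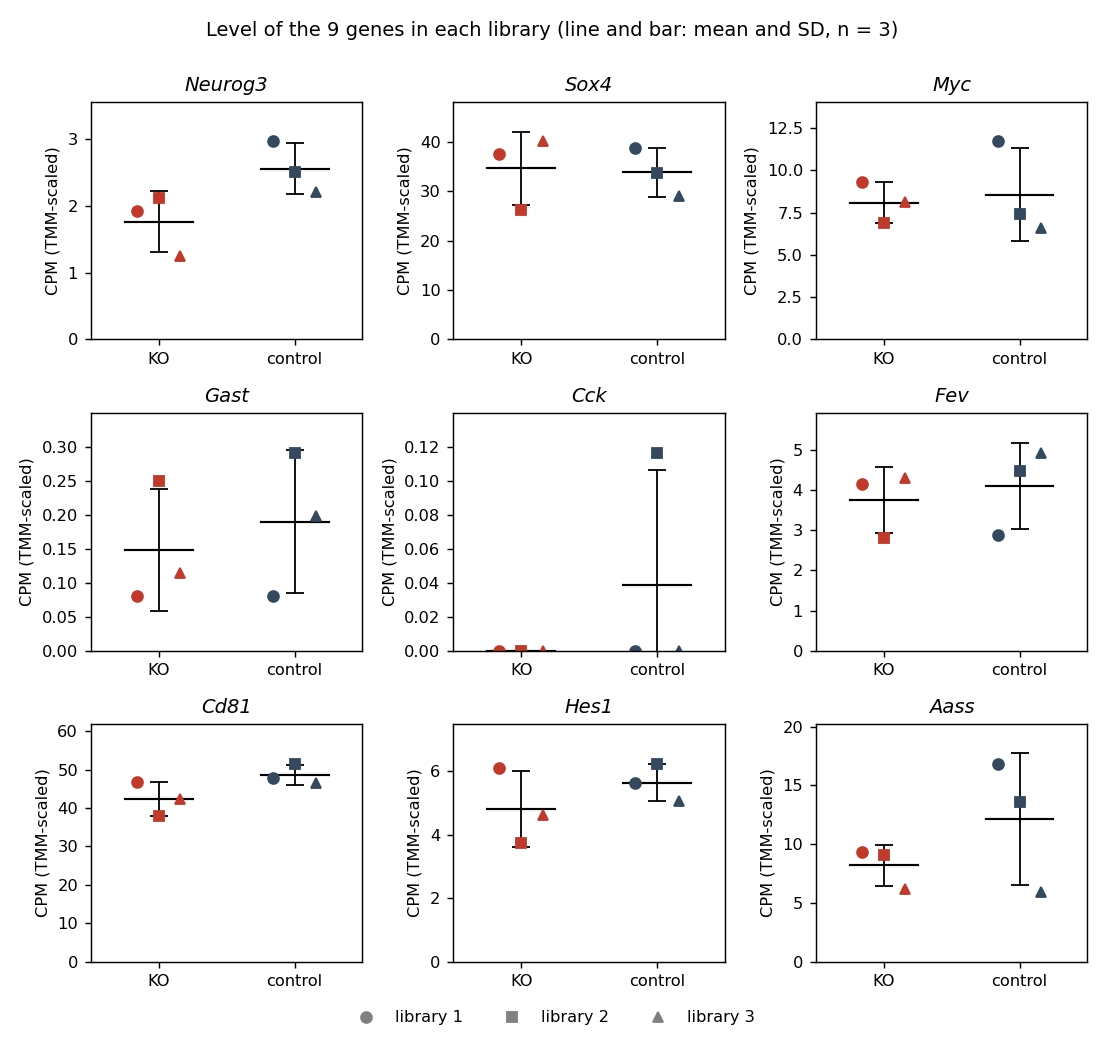
Level of the 9 genes in each library, in CPM scaled by TMM factors, with KO on the left and control on the right of each panel; points are libraries, horizontal lines means and bars SD (n = 3 each). Neurog3 is the 1 tested gene whose groups do not overlap, and Cck has counts only in control 2.

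Sox4 (ENSMUSG00000076431.4, a single exon on chromosome 13, 28948919 to 28953713) was far more abundant than Neurog3 and did not differ beyond the spread. It stood at 37.6, 26.1 and 40.1 CPM in KO 1, 2 and 3, against 38.7, 33.7 and 28.9 CPM in controls 1, 2 and 3. The lowest and the highest library were both KO, and the controls lay between them. The means were 34.6 ± 7.4 CPM in KO and 33.8 ± 4.9 CPM in controls (SD, n = 3 each), and the log2 fold change of 0.05 had a 95% interval of -0.33 to 0.42 (SE 0.16, edgeR adjusted p = 0.956). Its direction was not stable, with values from -0.07 without KO 3 to 0.21 without KO 2. Among its relatives, Sox12 had 15.2 ± 0.82 CPM in KO and 15.6 ± 2.2 CPM in controls (SD, n = 3 each, log2 fold change -0.05, edgeR adjusted p = 0.932), and Sox11 had at most 0.32 CPM in any library.

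Fev (ENSMUSG00000055197.4, chromosome 1, 74881509 to 74885419) also overlapped between the groups. It stood at 4.17, 2.81 and 4.30 CPM in KO 1, 2 and 3, against 2.89, 4.49 and 4.94 CPM in controls 1, 2 and 3. One library of each group, KO 2 and control 1, was low and the other 4 were close together. Its log2 fold change of -0.14 had a 95% interval of -0.68 to 0.40 (SE 0.24, edgeR adjusted p = 0.907), and without KO 2 it was 0.01. Fev also drives serotonin synthesis in neurons and, in mice, in beta cells. Of 16 tested genes of that programme 0 passed, 6 had positive and 10 negative values, and the median was -0.04. Without control 3, 5 of 16 were negative and the median was 0.04, and with the ribosomal RNA covariate 4 were negative. Tph2, the neuronal tryptophan hydroxylase, had 2.12, 2.06 and 1.33 CPM in KO and 1.44, 1.17 and 0.79 CPM in controls (log2 fold change 0.75, SE 0.32, edgeR adjusted p = 0.674). The form usual in beta cells, Tph1, gave 2 counts over all 6 libraries. Ddc, which makes serotonin from its precursor, was abundant at 261 ± 13 CPM in KO and 249 ± 24 CPM in controls (SD, n = 3 each, log2 fold change 0.07, edgeR adjusted p = 0.903). Lmx1b, Maob and Spr had values of 0.31, 0.16 and -0.15.

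The wider list of the endocrine cascade did not lean to either side. Of 25 tested genes, 13 had positive and 12 negative values, with a median of 0.00, and 0 passed the threshold. Neurod1, a direct target of Neurog3, averaged 77.0 ± 3.8 CPM in KO and 68.3 ± 10.2 CPM in controls (SD, n = 3 each, log2 fold change 0.17, edgeR adjusted p = 0.771). Insm1, another target, averaged 112 ± 1.6 CPM in KO and 118 ± 6.5 CPM in controls (SD, n = 3 each, log2 fold change -0.08, edgeR adjusted p = 0.859). Pax4, which is restricted to endocrine precursors and early beta cells, had 0 counts in all 6 libraries, which allows up to 0.0242 CPM, unscaled (3 counts of the total). St18 and Rfx6, factors that stay on in mature islet cells, had the smallest p, with values of 0.24 and 0.22 (edgeR adjusted p = 0.633 and 0.648) and every KO library above every control. That was so for 2 of the 25 genes of the list, close to the 7.94% of all tested genes. Myt1 had a value of 0.26 (edgeR adjusted p = 0.706).

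Hes1 (ENSMUSG00000022528.8, chromosome 16, 30064384 to 30067796), the Notch effector that represses Neurog3, did not differ beyond the spread. It stood at 6.09, 3.74 and 4.60 CPM in KO 1, 2 and 3, against 5.62, 6.23 and 5.07 CPM in controls 1, 2 and 3. KO 2 and KO 3 lay below the controls and KO 1 among them. Its log2 fold change of -0.21 had a 95% interval of -0.66 to 0.24 (SE 0.20, edgeR adjusted p = 0.827). It was -0.42 without KO 1 and -0.07 without KO 2. With the log2 level of the ribosomal RNA locus as a covariate the sign turned, at 0.18 (SE 0.28). The locus took a larger share of counts in every KO library than in any control, so that fit separates it poorly from genotype.

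The Notch pathway as a whole had as many positive as negative values. Of 34 tested genes of its ligands, receptors, processing enzymes and nuclear effectors, 17 were positive and 17 negative (median -0.00), and 0 passed. The smallest p belonged to nuclear cofactors. Maml3, a coactivator of the Notch complex, stood at 31.6, 35.6 and 45.3 CPM in KO and 27.4, 24.5 and 28.2 CPM in controls (log2 fold change 0.49, SE 0.14, edgeR adjusted p = 0.515). Maml2, of the same family, had a value of 0.50 (edgeR adjusted p = 0.624), and Spen, a corepressor, one of 0.45 (edgeR adjusted p = 0.619). All 3 were above every control in every KO library and highest in KO 3, the library with the largest share of ribosomal RNA, whose part in these values was not tested. KO was above control without overlap in 3 of the 34 genes of the list, close to the 7.94% of all tested genes. Rbpj, the DNA-binding partner of Notch, had a value of -0.02 (SE 0.12, edgeR adjusted p = 0.970).

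**Figure D2:**
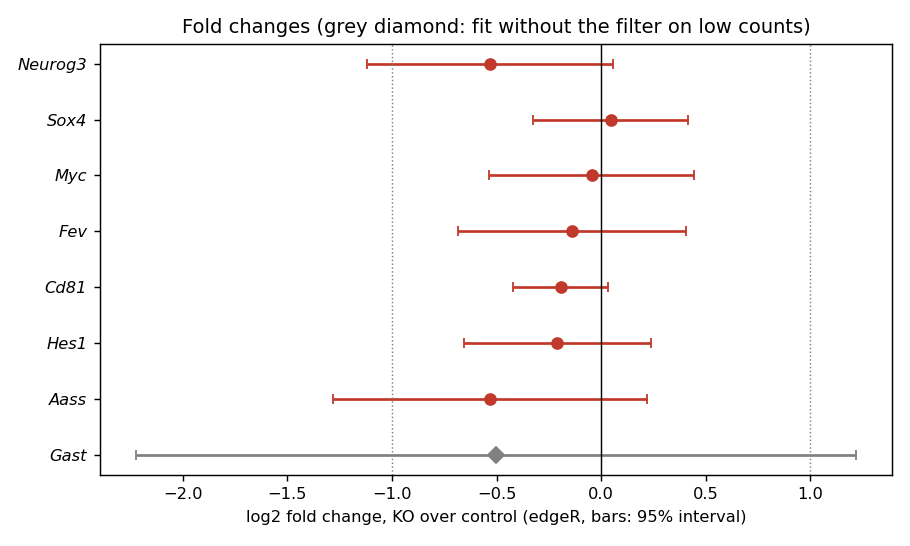
Log2 fold change, KO over control, of the 7 tested genes and of Gast, with 95% intervals on the horizontal axis; dotted lines stand at a log2 value of -1 and 1. All 8 intervals include 0, and that of Cd81, from -0.42 to 0.03, is the narrowest.

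Myc (ENSMUSG00000022346.16, chromosome 15, 61985391 to 61990374), a growth-promoting transcription factor, did not differ beyond the spread either. It stood at 9.29, 6.86 and 8.14 CPM in KO 1, 2 and 3, against 11.7, 7.40 and 6.59 CPM in controls 1, 2 and 3. Control 1 was the highest library and control 3 the lowest, so the KO libraries lay within the controls. Its log2 fold change of -0.04 had a 95% interval of -0.53 to 0.44 (SE 0.22, edgeR adjusted p = 0.967). Without control 1, which had the most acinar RNA, it was 0.22. Max, its obligate partner, had a value of -0.02 (SE 0.09, edgeR adjusted p = 0.956), and its paralog Mycn one of -0.13 (edgeR adjusted p = 0.940). Mycl was too low to test, at no more than 0.56 CPM in any library.

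Neither the partners and antagonists of MYC nor its targets held a gene past the threshold. Of 12 tested genes of the MYC network, 7 were positive and 5 negative, with a median of 0.08. Without control 1, 3 of 13 were negative (median 0.13). Mxd1, which competes with Myc for Max, stood at 15.1, 12.2 and 18.9 CPM in KO and 10.9, 11.9 and 12.1 CPM in controls (log2 fold change 0.41, SE 0.15, edgeR adjusted p = 0.628). Mga, a repressor that also binds Max, had a value of 0.37 (edgeR adjusted p = 0.671) and Mlx one of -0.20 (edgeR adjusted p = 0.741). Of 31 tested genes of ribosome production and growth that MYC activates, 3 were positive and 28 negative, with a median of -0.14, where 52.2% of all tested genes were negative. With a library left out the median ran from -0.21 (without control 3) to -0.09 (without control 1). In 6 of the 31 every KO library was below every control, where 5.94% of all genes were. With a library left out, 25 to 29 of the 31 were negative. With the ribosomal RNA covariate 26 were. The list was chosen with earlier results of these data known and its genes need not vary independently, so these counts only describe it.

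Among these targets Shmt2, a mitochondrial enzyme of one-carbon metabolism that Atf4 also regulates, had the lowest p, with 14.98, 15.4 and 10.7 CPM in KO and 32.9, 22.4 and 20.3 CPM in controls (log2 fold change -0.87, SE 0.20, edgeR adjusted p = 0.353). Gnl3, a nucleolar GTPase, had 10.9, 12.7 and 11.6 CPM in KO and 15.6, 14.3 and 14.9 CPM in controls (log2 fold change -0.35, SE 0.11, edgeR adjusted p = 0.544). Mybbp1a, a nucleolar factor, had a value of -0.21 (edgeR adjusted p = 0.671). Myc transcript levels themselves did not separate the groups.

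The peptide hormones gastrin and cholecystokinin were barely detected in either group. Gast (ENSMUSG00000017165.1, chromosome 11, 100334407 to 100336996) gave 2, 4 and 3 counts in KO 1, 2 and 3, against 1, 5 and 6 counts in controls 1, 2 and 3. The level was 0.148 ± 0.090 CPM in KO and 0.190 ± 0.106 CPM in controls (SD, n = 3 each). In a fit without the filter on low counts its log2 fold change of -0.50 had a 95% interval of -2.22 to 1.22 (SE 0.88, edgeR adjusted p = 0.895), an interval too wide to tell a rise from a fall. Cck (ENSMUSG00000032532.7, chromosome 9, 121489824 to 121495694) gave 0 counts in every KO library, against 0, 2 and 0 counts in controls 1, 2 and 3. A count of 0 over the KO group allows up to 0.0444 CPM, unscaled, and no fold change is given.

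Enzymes that would mature these hormones and the receptor Cckar were expressed, while the receptor Cckbr was barely detected. Of 10 tested genes of prohormone processing and hormone reception 9 had positive values, the median was 0.07 and 0 passed. Without control 1, however, 6 of the 10 were negative (median -0.01), and without KO 2 there were 4. Pcsk1, a prohormone convertase, had 548, 627 and 620 CPM in KO and 478, 529 and 553 CPM in controls (log2 fold change 0.20, edgeR adjusted p = 0.747), and the carboxypeptidase Cpd a value of 0.18. The receptor Cckar, which in mice is abundant in acinar cells, stood at 187, 143 and 95.3 CPM in KO and 296, 175 and 116 CPM in controls (log2 fold change -0.46, SE 0.33, edgeR adjusted p = 0.777). The receptor Cckbr reached at most 0.24 CPM.

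Cd81 (ENSMUSG00000037706.17, chromosome 7, 143052739 to 143067934), a tetraspanin of the cell surface, had the smallest SE of the tested genes. It stood at 46.9, 37.9 and 42.3 CPM in KO 1, 2 and 3, against 47.7, 51.6 and 46.5 CPM in controls 1, 2 and 3. KO 1 lay just inside the control range and the other KO libraries below it. The means were 42.4 ± 4.5 CPM in KO and 48.6 ± 2.7 CPM in controls (SD, n = 3 each, two-sided p = 0.2 in an exact permutation test). The log2 fold change of -0.19 had a 95% interval of -0.42 to 0.03, or 0.746-fold to 1.02-fold (SE 0.10, edgeR adjusted p = 0.729). With the ribosomal RNA covariate it was -0.02. Exons of Cd81 share 104 bases with R74862 on the opposite strand, which had at most 30 counts in a library, against at least 595 for Cd81.

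Of 21 tested tetraspanins and their partners 9 were positive and 12 negative, with a median of -0.04, and 0 passed. The interferon-induced membrane proteins Ifitm2 and Ifitm3, which associate with tetraspanins, had the smallest p. Ifitm2 stood at 9.77, 7.05 and 8.10 CPM in KO and 12.0, 12.6 and 10.6 CPM in controls (log2 fold change -0.49, SE 0.15, edgeR adjusted p = 0.542). Ifitm3 had a value of -0.68 (SE 0.25, edgeR adjusted p = 0.618), and its groups overlapped. Near-identical Ifitm copies can share reads, so both are uncertain. Tspan31 had a value of -0.20 (edgeR adjusted p = 0.744). Cd9, a close relative of Cd81, had a value of 0.15 (SE 0.17, edgeR adjusted p = 0.845).

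Aass (ENSMUSG00000029695.13, chromosome 6, 23072173 to 23132986), the mitochondrial enzyme that starts lysine breakdown, varied most between libraries among the 7 tested genes. It stood at 9.37, 9.04 and 6.20 CPM in KO 1, 2 and 3, against 16.8, 13.6 and 5.93 CPM in controls 1, 2 and 3. Controls 1 and 2 were above all KO libraries and control 3 below them. The means were 8.21 ± 1.74 CPM in KO and 12.1 ± 5.6 CPM in controls (SD, n = 3 each, two-sided p = 0.4 in an exact permutation test). The log2 fold change of -0.53 had a 95% interval of -1.28 to 0.22 (SE 0.33, edgeR adjusted p = 0.749). It was -0.89 without control 3 and -0.22 without control 1.

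Among controls, Aass and the acinar markers had the same order, with control 1 highest and control 3 lowest. Among KO libraries both were lowest in KO 3, but Aass was highest in KO 1 and the acinar markers in KO 2. Over all 6 libraries the lowest was control 3 for Aass and KO 3 for the acinar markers. The 21 acinar markers summed to 320277, 332751 and 172558 CPM in KO 1, 2 and 3, against 512382, 310344 and 198114 CPM in controls 1, 2 and 3. With the mean level of acinar genes as a covariate the Aass value was -0.22 (SE 0.18, edgeR adjusted p = 0.832). Of 14 tested genes of lysine breakdown 6 were positive and 8 negative, with a median of -0.08, and 0 passed. Slc25a29, a mitochondrial carrier of basic amino acids, stood at 5.69, 5.68 and 4.34 CPM in KO and 7.46, 6.70 and 6.29 CPM in controls (log2 fold change -0.38, SE 0.16, edgeR adjusted p = 0.674). Echs1, an enoyl-CoA hydratase, had a value of -0.14.

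**Figure D3:**
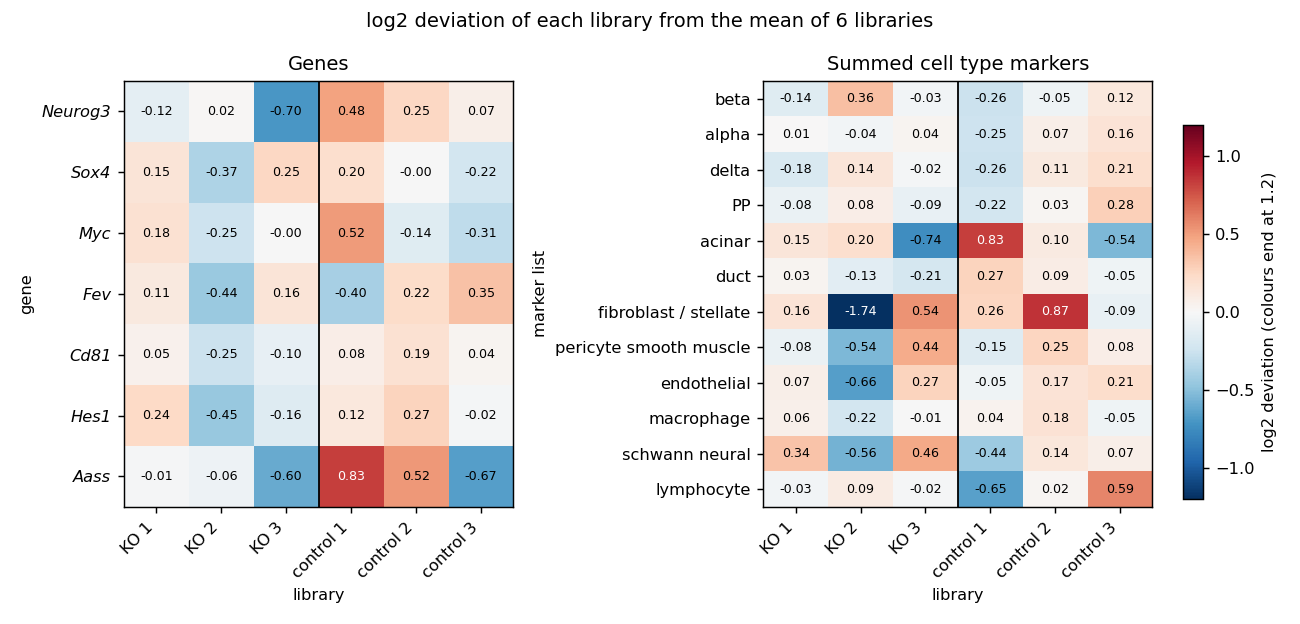
Log2 deviation of each library from the mean of the 6 libraries, for the 7 tested genes (left) and for summed markers of each cell type (right), with KO libraries left of the controls in both panels. Sox4, Fev, Cd81 and Hes1 are lowest in KO 2, where fibroblast and endothelial markers are lowest too, and Aass and the acinar markers are both highest in control 1.

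The 7 tested genes did not all have the same highest or lowest library. Sox4, Fev, Cd81 and Hes1 were all lowest in KO 2, by 0.37, 0.44, 0.25 and 0.45 below their mean on the log2 scale. In that library the 10 endothelial markers summed to 295 CPM, against 489 and 559 CPM in KO 1 and 3 and 448 to 537 CPM in controls. The 12 fibroblast and stellate markers were also lowest there, and the 10 beta-cell markers highest, at 148019 CPM. These genes are also known outside endocrine cells, and the part of such cells in the values was not tested. Without KO 2 the log2 fold changes of Sox4, Fev, Cd81 and Hes1 were 0.21, 0.01, -0.12 and -0.07. Myc, Neurog3 and Aass were highest in control 1.

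Per kilobase of exon, the order of the levels was the same in both groups at its ends. Cd81 led with 14.7 ± 1.6 CPM per kilobase in KO and 16.9 ± 0.92 in controls, and Sox4 followed with 7.21 ± 1.55 in KO and 7.05 ± 1.02 in controls (SD, n = 3 each). Myc had 2.98 ± 0.45 in KO and 3.15 ± 1.01 in controls, and Hes1 had 2.36 ± 0.58 in KO and 2.77 ± 0.28 in controls. Fev had 2.32 ± 0.51 in KO and 2.54 ± 0.67 in controls, and Aass had 2.15 ± 0.46 in KO and 3.17 ± 1.47 in controls. These 4 did not differ from each other beyond their spread. Neurog3 came next, with 1.06 ± 0.27 in KO and 1.53 ± 0.23 in controls, and the mean ± SD ranges of Neurog3 and Aass overlapped in controls. Gast followed with 0.322 ± 0.195 in KO and 0.412 ± 0.230 in controls. Cck was last.

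Among other genes linked to beta-cell dedifferentiation, Aldh1a3 alone passed the test, and that call depended on the setting. This retinaldehyde dehydrogenase fell to 1.16, 1.56 and 1.14 CPM in KO 1, 2 and 3, against 4.01, 6.29 and 4.25 CPM in controls 1, 2 and 3 (log2 fold change -1.93, SE 0.25, edgeR adjusted p = 0.0441). The call ended with any 1 library left out (log2 fold change -2.07 to -1.70, edgeR adjusted p from 0.0772 to 0.186) and with limma-voom (adjusted p = 0.0671). It also ended with the ribosomal RNA covariate, at -1.81 (SE 0.47, edgeR adjusted p = 1.000). The call held with DESeq2 (adjusted p = 9.41e-07) and with the acinar covariate (edgeR adjusted p = 0.0177), among other settings. In all 15 alternatives the log2 fold change lay between -2.08 and -1.70. Of 13 tested genes of the list, which includes the 7 tested ones above, 2 were positive and 11 negative, with a median of -0.19. Without KO 2, 6 of 14 were negative and the median was 0.02. SOX factors were split evenly, with 5 of 10 tested positive, a median of -0.02 and 0 past the threshold. That balance rested on single libraries, with 2 of 10 negative without KO 2 and 9 of 10 without KO 3. Sox7, Sox18 and Sox6 had values of -0.43, -0.18 and 0.20.

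**Figure D4:**
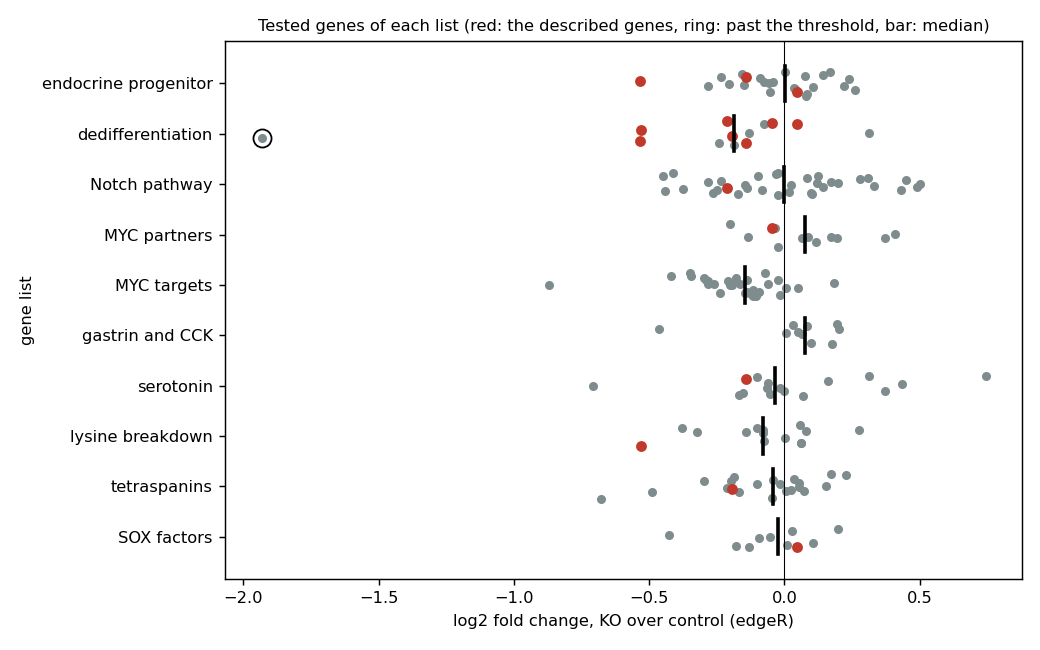
Log2 fold change, KO over control, of every tested gene in the 10 lists (points, with the described genes in red), with the median of each list as a bar and a ring around genes past the threshold. The MYC targets lie mostly below 0, with 28 of 31 negative, and Aldh1a3 is the 1 ringed gene.

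Genes with a pattern most like that of each of the 7 were sought among 11591 genes whose mean log2 CPM reached 1. The measure was the root mean square difference of log2 levels, each centred on its own mean over the 6 libraries. With 6 libraries and so many genes close matches are common, so these are descriptions. Nearest to Neurog3 were Cdk2ap2, Chchd1 and Dok7, at differences of 0.05, 0.06 and 0.08, where Neurog3 itself deviated by 0.37. Those nearest to Aass included Cd302 and Gatm, at 0.08 and 0.10, where Aass deviated by 0.54. Nearest to Cd81 were Cpm, Fbxl6 and Ephx1, at 0.02, 0.03 and 0.04, where Cd81 deviated by 0.14. For Sox4 they were Prag1, Dock1 and Nckap1l, for Myc they were Lrp4, Slc22a15 and Plcl1, and for Fev they were Gbp9, Gimap4 and St6galnac5. Those of Hes1 included mt-Nd2 and Gnai1, at 0.06 and 0.07. The nearest genes were not sorted by function or cell type, and the part of any cell type in these values was not tested.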

How the data were processed

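RNA of 6 islet libraries, 3 labelled KO and 3 control, was analysed from the raw read counts per gene that the authors deposited. The submitters' processing notes name STAR 2.7.9, featureCounts 2.0.0, GRCm38.p6 and mm10. Which annotation release was used, whether counting was stranded and how multi-mapping reads were treated is not given in the sources used here. The deposited table also gives other values per gene, its exon positions and length in bases, used for levels per kilobase. The column names of the KO libraries carry a suffix with no explanation in the labels. Symbols came from a gene name table, which matched 55141 of 55401 identifiers, and a shared symbol went to the protein-coding gene with the most counts.

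Counts were tested with the quasi-likelihood functions of edgeR 4.0.16 in R 4.3.3. Library sizes were scaled by TMM, genotype was the single term, and filterByExpr kept genes with a minimum count of 10 (minimum total 15). P-values were two-sided and adjusted by Benjamini-Hochberg over all 14212 tested genes. For single genes CPM were also compared with an exact permutation test, two-sided, and Gast was taken from a fit without the filter. Standard errors were taken from the fold change and its F statistic. No pair of libraries looked like copies of 1 library (lowest chi-square per degree of freedom 14.4). Counting limits cover counting error only. The script was tested on simulated data in which every gene had the same spread beyond counting error. In the real data that spread differed between genes. Promoters came from RefSeq (GRCm38.p6). Alternatives used DESeq2 1.42.0 and limma 3.58.1.

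The genes described and all gene lists were chosen with earlier results of these data known. Beside the 9 genes and fixed partners, the text names the genes of each list past the threshold, or else the 3 with the smallest p whose mean log2 CPM reached 1, and the 3 genes of most similar pattern. A few genes taken by these rules are left out. Python 3.11.15 with pandas 2.3.3 and matplotlib 3.10.9 made the tables and figures.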

Additional observations from a re-analysis of the deposited data

How the results depend on the processing

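None of the 7 tested genes passed the threshold in any of the 15 alternatives, nor did Gast in the 11 run for it, and of these 116 values 12 changed sign. Cck was given no fold change. The signs of Neurog3, Gast, Cd81 and Aass held in every alternative run for them. Myc turned to 0.0871 with the acinar covariate, 0.0597 with limma-voom and 0.18 with sample quality weights. With the ribosomal RNA covariate Fev turned to 0.12 and Hes1 to 0.18. With 1 library left out, values ran from -0.0676 to 0.206 for Sox4, from -0.217 to 0.224 for Myc and from -0.315 to 0.0262 for Fev, and from -0.67 to -0.32 for Neurog3. The cause was not tested. The adjusted p of Aass came nearest to the threshold, at 0.0537 without the filter on low counts (edgeR). The SE of Aass in that fit was 0.15, against 0.33 in the main fit, at the same log2 fold change of -0.53. The lower p thus came with a smaller estimated spread.

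Over all genes the count of 10 became 300 without the filter, 36 with the replicate block, 44 with the acinar covariate, 48 with DESeq2, 6 with limma-voom, 31 with sample quality weights and 0 with the ribosomal RNA covariate (edgeR, 214 at an unadjusted p under 0.05). The ribosomal RNA share was higher in every KO library than in any control, so the fit with that covariate separates it poorly from genotype. Leaving out 1 library gave 2 to 6 genes, from fewer samples. Same-numbered libraries deviated together at 0.16, -0.16 and 0.14, and libraries of unlike number at -0.24 to 0.16. The numbers show no clear pairing, but so few libraries per group cannot settle it. Counts of negative values in the lists and the values of Aldh1a3 under these alternatives were added after seeing the data. Depth limits Gast, Cck and Neurog3 most, with counting error alone at 53.5%, 173% and 15.1% of the mean count.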
